A study of Mus musculus with 6 samples.

Results

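Lamellar bodies are the lysosome-related organelles in which type II alveolar epithelial cells store surfactant before secretion. They are filled by lipid transporters of the limiting membrane and are built by the sorting machinery that also makes melanosomes and platelet dense granules, namely the adaptor complex AP-3 and the BLOC complexes. Inherited loss of parts of that machinery in humans causes Hermansky-Pudlak syndrome, in which lung fibrosis can occur, and loss of the lipid transporter ABCA3 causes surfactant deficiency. The genes described here are 9 of 19938 named genes on the array and were chosen by symbol: the membrane proteins Abca3, Lamp3, Atp8a1 and Slc34a2, and the biogenesis factors Hps1, Hps4, Hps6, Ap3b1 and Dtnbp1. Each had 1 probe set, and all 9 were measured.

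Transcripts were read on 6 Affymetrix mouse arrays, with 1 pool of type II cells from 3 mice aged 8 weeks on each. The 3 knockout pools came from triple-transgenic mice that carried Gpr116flx/flx together with SP-C-rtTA and (tetO)7CMV-Cre. The 3 control pools came from littermates that carried SP-C-rtTA and (tetO)7CMV-Cre alone, so both groups shared the Cre transgenes. The surfactant protein C promoter directs the recombinase to lung epithelium, and the cells were isolated with collagenase and differential plating. Gpr116, now named Adgrf5, is an adhesion receptor whose deletion the study set out to examine in these cells. Its probe set read higher in the pools labelled knockout (11.89, 11.78 and 11.87) than in control pools (11.49, 11.53 and 11.51), with a limma difference of 0.34 ± 0.05. The position of its probes in relation to the floxed sequence was not analysed here, so this does not check the labels, on which all directions below rest. Values are log2 RMA values, on which a difference of 1 is a 2-fold change. The 20 markers of type II cells were all high in every pool, between 9.24 and 13.20. Markers of some other cell types differed between the groups. All 10 ciliated cell markers were called lower in the pools labelled knockout (mean 8.27 to 8.87, against 9.46 to 9.54 in control pools). All 5 club cell markers were lower with no overlap, and 3 of them were called (mean 11.83 to 11.97, against 12.30 to 12.35 in control pools). Called higher were Ager of 8 type I cell markers (0.22), Cd14 of 9 macrophage markers (1.07) and Esam and Pecam1 of 8 endothelial markers (0.50 and 0.45). The endothelial marker Kdr was called lower (-1.18). Over all genes 8.49% were called in either direction. Among type I cell markers Akap5 was higher with no overlap (0.72) and Aqp5 and Hopx lower (-0.38 and -0.26), without a call. The endothelial marker Cdh5 was also higher with no overlap (0.62), without a call. Median differences were 0.15 for the type I cell markers, 0.17 for the endothelial markers and 0.04 for the macrophage markers. No dendritic, fibroblast or T and B cell marker was called. The part of these cell types in the results below was not tested.

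Of the 9 lamellar body genes 1 rose, 0 fell and 8 did not pass the limma threshold (Benjamini-Hochberg adjusted p under 0.05 over all genes). Over all 19938 genes 3.36% were called higher and 5.13% lower, 8.49% in all, so 1 of 9 is close to the background. With pools of the same replicate number blocked 0 of the 9 passed, against 3.08% of all genes called higher and 4.86% lower. The differences of the 9 genes ran from -0.08 to 0.32 on log2, with a median of 0.063, against 0.003 over all genes. The groups did not overlap, with the pools labelled knockout higher, for Abca3, Lamp3, Slc34a2 and Ap3b1, which is 4 of 9, against 14.8% of all genes. No lamellar body gene had the reverse arrangement, which 12.8% of all genes had (27.6% in either direction). In pooled bulk RNA, fewer cells of a type and less RNA per cell cannot be told apart.

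**Figure D1:**
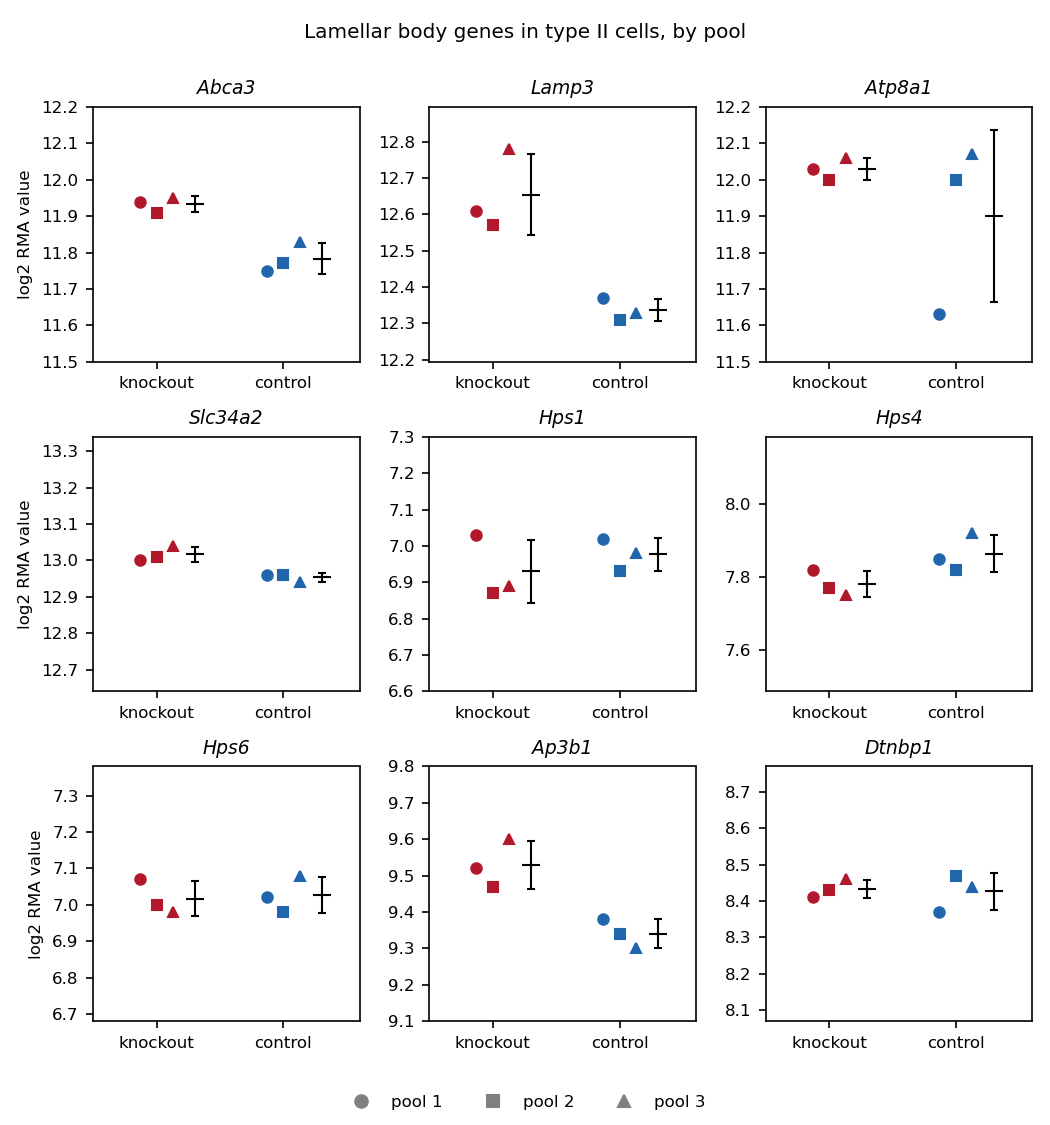
Log2 RMA values (vertical axes, all spanning the same range) of the 9 lamellar body genes in each pool, with the 3 pools labelled knockout left of the 3 control pools and the mean with its SD beside each group. Lamp3, Abca3, Ap3b1 and Slc34a2 are separated between the groups, and control pool 1 stands at 11.63 for Atp8a1 while the other 5 pools read 12.00 to 12.07.

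Lamp3 encodes a glycoprotein of the lysosome-associated membrane protein family that sits in the limiting membrane of lamellar bodies. It read 12.61, 12.57 and 12.78 in the pools labelled knockout and 12.37, 12.31 and 12.33 in control pools (probe set 10438435). Every pool labelled knockout exceeded every control pool, by at least 0.20, and pool 3 stood highest. The means were 12.65 ± 0.11 and 12.34 ± 0.03 (SD, n = 3 each), a difference of 0.32 ± 0.07 (SE; 95% interval 0.16 to 0.48), which is 1.25-fold, with a limma adjusted p = 0.0337. When same-numbered pools were blocked the adjusted p was 0.0522 and no lamellar body gene was called, against 3.08% of all genes called higher and 4.86% lower in that fit. The call was also lost without knockout 3 (difference 0.25, adjusted p = 0.066) or without control 1, 2 or 3 (0.101, 0.14 and 0.128), when every probe set of the array was tested (0.072) and when arrays were scaled to the type II cell markers (0.0669). The mean of those markers was 11.77, 11.63 and 11.74 in knockout 1, 2 and 3, against 11.67, 11.63 and 11.63 in control pools. Scaling took 0.072 from each difference (knockout minus control), while the median difference of the 20 markers was 0.04. Il33 (0.72) and Chil1 (0.26) were the 2 of 20 called higher, and 0 were called lower. Without a call, S100g stood at 0.43 and Krt18 at -0.36.

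Lamp3 is also a marker of mature dendritic cells, where it is known as DC-LAMP. None of 8 other dendritic cell markers passed the limma threshold, and 0 had an unadjusted p under 0.05. Ccr7 and Fscn1, which mark mature dendritic cells, were separate between the groups and higher in the pools labelled knockout. Itgae was separate the other way, with a difference of -0.14 ± 0.07. Among the markers that overlapped, Flt3, Xcr1, Clec9a and Zbtb46 had negative differences and Cd209a a positive one. The median difference of the 8 markers was -0.07. They read 4.17 to 7.30 in single pools, against array medians of 6.77 to 6.81. Ccr7 had 6.78, 6.77 and 6.79 in the pools labelled knockout, against 6.71, 6.69 and 6.72 in control pools, a difference of 0.07 ± 0.05. Fscn1 had 7.30, 6.98 and 7.00 in the pools labelled knockout, against 6.90, 6.94 and 6.85 in control pools, a difference of 0.20 ± 0.09. Over all 8 markers the mean was 5.90 to 5.96 in the pools labelled knockout and 5.91 to 5.98 in control pools, and the part of these cells in the Lamp3 result was not tested. The related lysosomal membrane proteins Lamp1 and Lamp2 stood at 0.10 ± 0.05 and 0.13 ± 0.07 (limma adjusted p = 0.284 and 0.353), without passing.

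Abca3 is the ATP-binding cassette transporter that loads phospholipid into lamellar bodies. It read 11.94, 11.91 and 11.95 in the pools labelled knockout, against 11.75, 11.77 and 11.83 in control pools (probe set 10442396). The groups did not overlap, and the pools within each group lay within 0.04 and 0.08 of each other. The difference was 0.15 ± 0.05 (95% interval 0.03 to 0.27), or 1.11-fold, and it did not pass the limma threshold (adjusted p = 0.128, and 0.0582 to 0.48 over 14 alternative settings). Scaled to type II cell markers, the difference was 0.077. The upper end of the interval corresponds to a 1.2-fold rise. The neighbouring gene Abca17, whose annotated span overlaps that of Abca3 by 138 bases in RefSeq, had 9.20, 9.66 and 9.75 in the pools labelled knockout, against 9.07, 9.15 and 9.38 in control pools. Its groups overlapped, and the difference of 0.34 ± 0.15 did not pass (limma adjusted p = 0.262).

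The promoter windows of Lamp3 and Abca3 are shown because these genes differ in base composition as well as in call. Each window holds 250 bases before the annotated start and 50 after it, from RefSeq (GRCm38.p6), and letters in capitals mark motif matches. The Lamp3 window lies at chr16:19706316-19706615 on the minus strand and that of Abca3 at chr17:24351773-24352072 on the plus strand.
Lamp3: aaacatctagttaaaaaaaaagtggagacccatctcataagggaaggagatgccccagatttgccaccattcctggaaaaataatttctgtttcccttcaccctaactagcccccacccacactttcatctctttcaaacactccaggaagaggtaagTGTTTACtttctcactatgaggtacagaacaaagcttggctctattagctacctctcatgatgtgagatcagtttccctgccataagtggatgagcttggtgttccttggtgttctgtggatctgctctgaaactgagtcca
Abca3: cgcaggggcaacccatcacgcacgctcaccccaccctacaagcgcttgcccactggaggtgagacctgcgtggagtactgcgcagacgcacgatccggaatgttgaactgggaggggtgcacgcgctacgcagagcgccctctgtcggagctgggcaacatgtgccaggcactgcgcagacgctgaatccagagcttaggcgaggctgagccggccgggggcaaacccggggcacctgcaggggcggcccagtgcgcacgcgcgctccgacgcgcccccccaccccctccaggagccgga
The Lamp3 window held 0 CpG dinucleotides and 43.7% G and C, while the Abca3 window held 29 and 69.7%. Windows without a CpG made up 5.43% of 32851 windows of this length, and the median over all windows was 7. The windows of the other genes held 16 to 48 CpG, apart from a second Hps1 window with 3. The capitals in the Lamp3 window are the forkhead motif TGTTTAC, 92 bases before the start, which 3.65% of all windows held on either strand and no other lamellar body gene did. Genes with a window were classed by the first one listed. Of the 654 whose window held no CpG, 0.917% were called higher and 0.917% lower, against 3.56% and 5.52% of the 14960 with at least 1. Expression levels of these classes were not compared, and a link between CpG count and calls was not tested.

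Atp8a1 is a P4-ATPase flippase, which moves phosphatidylserine to the cytosolic side of membranes. It read 12.03, 12.00 and 12.06 in the pools labelled knockout and 11.63, 12.00 and 12.07 in control pools (probe set 10530319). Control 1 stood at least 0.37 below every other pool, and the remaining 5 pools were alike. The difference of 0.13 ± 0.11 (95% interval -0.14 to 0.40; limma adjusted p = 0.583) became -0.005 without control 1. A gap at least this large below the other 5 pools was found in control 1 for 15 of 19938 genes, or 0.0752%. No other lamellar body gene had a gap above 0.04 there.

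Atp8a1 and most flippases of its family leave the endoplasmic reticulum with a CDC50 subunit, and Tmem30a encodes the broadly expressed one, CDC50A. Tmem30a rose, with 11.80, 11.75 and 11.95 in the pools labelled knockout, against 11.52, 11.48 and 11.38 in control pools. The groups were 0.23 apart at their nearest, and pool 3 of the knockout group was again the highest. The difference was 0.37 ± 0.07, or 1.3-fold (limma adjusted p = 0.0237, or 0.0532 with same-numbered pools blocked). It was not called without knockout 3 (adjusted p = 0.0595), without control 1, 2 or 3 (0.068, 0.0926 and 0.101) or when every probe set was tested (0.0527). Among the 16 measured flippase and CDC50 genes 1 rose, 1 fell and 14 did not pass, against 3.36% of all genes called higher and 5.13% lower. Their median difference was 0.065. The gene that fell, Atp8b5, a flippase described in mouse testis, had 6.34, 5.99 and 6.12 in the pools labelled knockout, against 6.76, 6.56 and 6.73 in control pools (-0.53 ± 0.10, limma adjusted p = 0.0231). Its call was lost without knockout 3 (0.0796), without control 1, 2 or 3 (0.0967, 0.0562 and 0.103) and when every probe set was tested (0.053).

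Slc34a2 is the sodium-phosphate cotransporter through which type II cells take up the phosphate left by surfactant phospholipid breakdown, and its loss in humans causes alveolar microlithiasis. It read 13.00, 13.01 and 13.04 in the pools labelled knockout, against 12.96, 12.96 and 12.94 in control pools (probe set 10521892). The groups were separate by 0.04, on a scale whose highest value on any array was 13.43. The difference of 0.06 ± 0.05 did not pass (95% interval -0.05 to 0.17; limma adjusted p = 0.501) and was -0.012 after quantile normalization and -0.0092 after scaling to type II cell markers. Whether signal near the top of the scale was saturated was not tested. Against 8.49% of all genes called, 0 of 6 other phosphate transporter genes passed limma, and 0 had an unadjusted p under 0.05. The closest were the importer Slc20a1 (-0.13 ± 0.10), the exporter Xpr1 (-0.09 ± 0.08) and Slc34a1 (0.05 ± 0.06, and -0.019 when scaled to type II cell markers). Single pools moved these values: Slc20a1 was -0.24 without knockout 1 and -0.033 without knockout 3, and Xpr1 was -0.02 without knockout 1 and -0.17 without knockout 2.

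**Figure D2:**
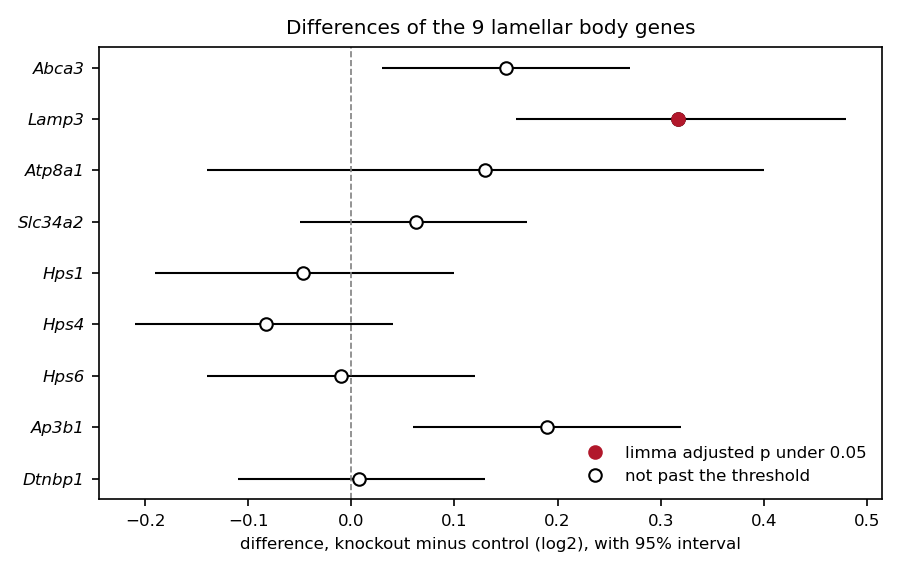
Difference between pools labelled knockout and control pools on log2 (horizontal axis) with its 95% interval for each lamellar body gene. The filled point, Lamp3 at 0.32, passed the limma threshold, and the intervals of Abca3 (0.03 to 0.27) and Ap3b1 (0.06 to 0.32) lie above 0 before adjustment over all genes.

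Ap3b1 encodes the beta 3A subunit of AP-3, the coat that sorts membrane proteins from endosomes to lysosome-related organelles, and its mutation causes Hermansky-Pudlak syndrome in humans and the pearl coat colour in mice. It read 9.52, 9.47 and 9.60 in the pools labelled knockout, against 9.38, 9.34 and 9.30 in control pools (probe set 10406681). The groups were separate by 0.09. The difference was 0.19 ± 0.06, or 1.14-fold (95% interval 0.06 to 0.32), and did not pass (limma adjusted p = 0.0946, and 0.052 to 0.274 over the alternative settings).

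The other AP-3 subunits, taken as a complete set, did not share a direction. Of 6, 0 were called by limma, 1 had an unadjusted p under 0.05 with a positive difference and 1 with a negative one. Of all genes 11.5% and 10.6% did. The medium subunit Ap3m1 had 10.66, 10.54 and 10.70 in the pools labelled knockout, against 10.51, 10.44 and 10.39 in control pools (0.19 ± 0.06, limma adjusted p = 0.139), and a second probe set differed by 0.22. Ap3m2, the medium subunit known from brain, was separated the other way, with 7.54, 7.53 and 7.30 in the pools labelled knockout, against 7.88, 7.63 and 7.69 in control pools (-0.28 ± 0.09, adjusted p = 0.137). Ap3d1, Ap3s1, Ap3s2 and Ap3b2 overlapped between the groups, with differences of -0.01, 0.02, 0.09 and -0.03, of which that of Ap3s1 turned to -0.011 after quantile normalization and -0.052 when scaled to type II cell markers.

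Hps1 and Hps4 form BLOC-3, which activates the small GTPases Rab32 and Rab38, and Hps6 belongs to BLOC-2. Hps1 read 7.03, 6.87 and 6.89 in the pools labelled knockout, against 7.02, 6.93 and 6.98 in control pools (probe set 10467802). Hps4 read 7.82, 7.77 and 7.75 in the pools labelled knockout, against 7.85, 7.82 and 7.92 in control pools (probe set 10524369). Hps6 read 7.07, 7.00 and 6.98 in the pools labelled knockout, against 7.02, 6.98 and 7.08 in control pools (probe set 10463515). The groups overlapped for Hps1 and Hps6, and for Hps4 they met at 7.82. The differences were -0.05 ± 0.06, -0.08 ± 0.05 and -0.01 ± 0.05 (limma adjusted p = 0.744, 0.429 and 0.948), and that of Hps6 was 0.015 after quantile normalization. Their 95% intervals ran from -0.19 to 0.10, from -0.21 to 0.04 and from -0.14 to 0.12, so the folds in array signal they allow lie between 0.866 and 1.09. Hps1 and Hps6 read close to the array medians of 6.77 to 6.81. Whether differences are compressed at that level was not tested.

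Dtnbp1 encodes dysbindin, a BLOC-1 subunit whose loss in mice gives the sandy coat colour. It read 8.41, 8.43 and 8.46 in the pools labelled knockout, against 8.37, 8.47 and 8.44 in control pools (probe set 10408915). The groups overlapped, and the difference was 0.01 ± 0.05 (95% interval -0.11 to 0.13; limma adjusted p = 0.966), or -0.066 when scaled to type II cell markers. Among the 9 genes, Abca3, Lamp3, Atp8a1, Slc34a2, Ap3b1 and Dtnbp1 stood highest within the knockout group in pool 3, which was so for 27.8% of all genes. Hps1, Hps4 and Hps6 stood highest in pool 1, which was so for 41.1% of all genes.

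The Hps1 promoter is shown because it alone among the lamellar body genes held CACGTG, the core letters bound by Mitf, Tfeb and their relatives. The window lies at chr19:42779929-42780228 on the minus strand of GRCm38.p6 in RefSeq, and the capitals mark the match.
Hps1: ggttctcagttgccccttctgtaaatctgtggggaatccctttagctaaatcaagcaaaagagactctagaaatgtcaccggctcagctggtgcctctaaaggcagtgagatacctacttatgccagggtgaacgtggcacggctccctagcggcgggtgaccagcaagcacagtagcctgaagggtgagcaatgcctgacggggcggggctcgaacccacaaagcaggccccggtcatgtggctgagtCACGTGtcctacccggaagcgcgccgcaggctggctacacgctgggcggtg
The match starts 1 base before the annotated start. Of all 32851 windows 7.15% held CACGTG, and 0.326% held the longer CLEAR palindrome of lysosomal genes, found in none of the 10 windows of the lamellar body genes. Of the other letters searched on both strands, CTCAAG, the core of the NKX2-1 motif, stood in the Atp8a1 window (15.9% of all windows), TATAAA in the second Hps1 window (13.6%) and CCAAT in none of the 10 (37.4% of all windows). CACGTG lies within the CLEAR palindrome, and no other motif searched contains another.

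Beyond Hps1, Hps4, Hps6, Ap3b1 and Dtnbp1, 20 further genes of the BLOC and AP-3 pathway were measured. Of them 0 rose, 1 fell and 19 did not pass, against 3.36% of all genes called higher and 5.13% lower. Their median difference was 0.088. Without adjustment, 4 were higher and 2 lower at p under 0.05, against 11.5% and 10.6% of all genes. The gene that fell was Snapin, a BLOC-1 subunit that also binds the membrane fusion machinery, with 9.41, 9.37 and 9.18 in the pools labelled knockout, against 9.64, 9.62 and 9.74 in control pools. No pool of one group reached the other, and the difference was -0.35 ± 0.08 (limma adjusted p = 0.0363, or 0.0738 with same-numbered pools blocked). The call was lost without knockout 3 (0.0741), without control 1, 2 or 3 (0.11, 0.108 and 0.142) and when every probe set was tested (0.0765). Among the pools labelled knockout, Snapin was highest in knockout 1, as 41.1% of all genes were, and lowest in knockout 3. Ciliated cell markers had the same order among these pools (means of 8.87, 8.48 and 8.27 in knockout 1, 2 and 3), and their part in the result was not tested. Rab38, the GTPase whose loss in mice enlarges lamellar bodies, had 8.45, 8.17 and 8.35 in the pools labelled knockout, against 8.09, 8.15 and 8.14 in control pools (0.20 ± 0.08, limma adjusted p = 0.195, and 0.0398 without knockout 2); Rab38, the AP-3 subunits, Abca17, Lamp1, Lamp2, Nkx2-1 and the relatives of Mitf were named after their values were seen.

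**Figure D3:**
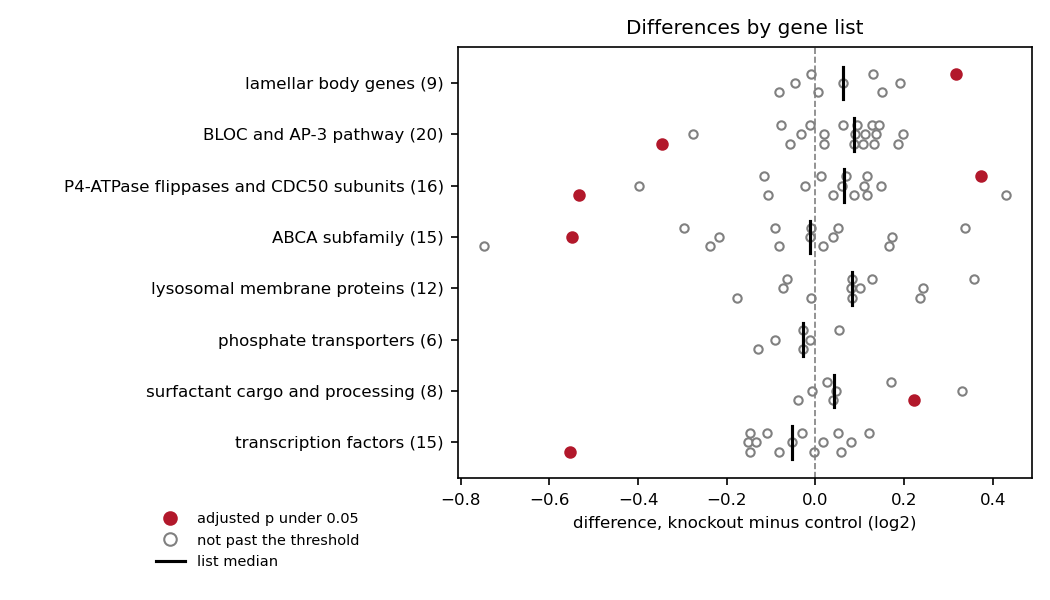
Differences between pools labelled knockout and control pools on log2 (horizontal axis) for the 9 lamellar body genes and 7 lists of related genes, with the number of measured genes in brackets; bars are list medians and filled points passed the limma threshold. List medians lie between -0.053 and 0.088, and 1 or 2 genes at most are called in any list.

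The 12 lysosomal membrane genes included none that passed limma, against 8.49% of all genes. At an unadjusted p under 0.05, 3 were higher and 0 lower, against 11.5% and 10.6% of all genes. Ctns, the lysosomal cystine exporter, came closest, with 9.10, 9.17 and 9.29 in the pools labelled knockout, against 8.67, 8.89 and 8.93 in control pools (0.36 ± 0.09, adjusted p = 0.0514). The groups were separate, and with same-numbered pools blocked Ctns passed, at 0.0272. The tetraspanin Cd63 stood at 0.24 ± 0.07 and Scarb2, the receptor that carries glucocerebrosidase to lysosomes, at 0.24 ± 0.08, both with separate groups and limma adjusted p = 0.0747 and 0.158. The median of the list was 0.083.

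Of 15 other genes of the ABCA subfamily 0 rose, 1 fell and 14 did not pass, with a median of -0.013. Of all genes 3.36% were called higher and 5.13% lower. Abca4, a retinoid flippase of photoreceptors, fell, with 6.08, 5.82 and 5.87 in the pools labelled knockout, against 6.59, 6.52 and 6.31 in control pools (-0.55 ± 0.10, limma adjusted p = 0.0189). The groups were separate, and the call was lost without knockout 3, control 1 or control 2 (0.0706, 0.0796 and 0.0889). In both Abca4 and Atp8b5 knockout 1 was the highest of the pools labelled knockout, as it was for 41.1% of all genes. The ciliated cell marker means were also highest there but lowest in knockout 3, while Abca4 and Atp8b5 were lowest in knockout 2. The part of ciliated cells in these results was not tested. Of 8 genes for surfactant cargo and its processing 1 rose, 0 fell and 7 did not pass. It was the phosphatidylcholine-remodelling acyltransferase Lpcat1 (0.22 ± 0.05), with 12.42, 12.33 and 12.39 in the pools labelled knockout, against 12.18, 12.13 and 12.16 in control pools. The groups were separate, and the limma adjusted p = 0.0405 became 0.0765 with same-numbered pools blocked, 0.103 after quantile normalization and 0.137 when scaled to type II cell markers. It also passed the threshold without knockout 2 but not without any other single pool (0.0777 to 0.168). Among the 7 that did not pass, Sftpa1, Sftpb, Sftpc and Lyz2 read 12.79 to 13.20, on a scale whose highest value on any array was 13.43. Whether their signal was saturated was not tested.

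Of 15 transcription factors and other regulators known to act on lamellar body or lysosome genes 0 rose, 1 fell and 14 did not pass. The median was -0.053, and calls over all genes were 3.36% higher and 5.13% lower. Mitf, which belongs with Tfeb, Tfe3 and Tfec to the family that drives lysosome and melanosome genes, fell, with 8.26, 8.43 and 8.58 in the pools labelled knockout, against 8.85, 9.11 and 8.97 in control pools. The groups were 0.27 apart at their nearest, and the difference was -0.55 ± 0.10 (limma adjusted p = 0.0199). Its second probe set, at 3.52 to 3.73 in all pools, read far below the array medians of 6.77 to 6.81 and differed by -0.03. Whether it could show a difference at that level was not tested. The mean of both probe sets gave -0.29 without a call (limma adjusted p = 0.0852). The call was also lost without control 2 (0.0836) or control 3 (0.0884). Tfeb, Tfe3 and Tfec, the rest of that family, stood at -0.08, -0.05 and 0.12 without passing, and Nkx2-1, the lung lineage factor, at -0.03 ± 0.06. In Mitf the pools labelled knockout were ordered opposite to the ciliated cell marker mean, with knockout 1 lowest, and the part of these cells in the result was not tested.

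**Figure D4:**
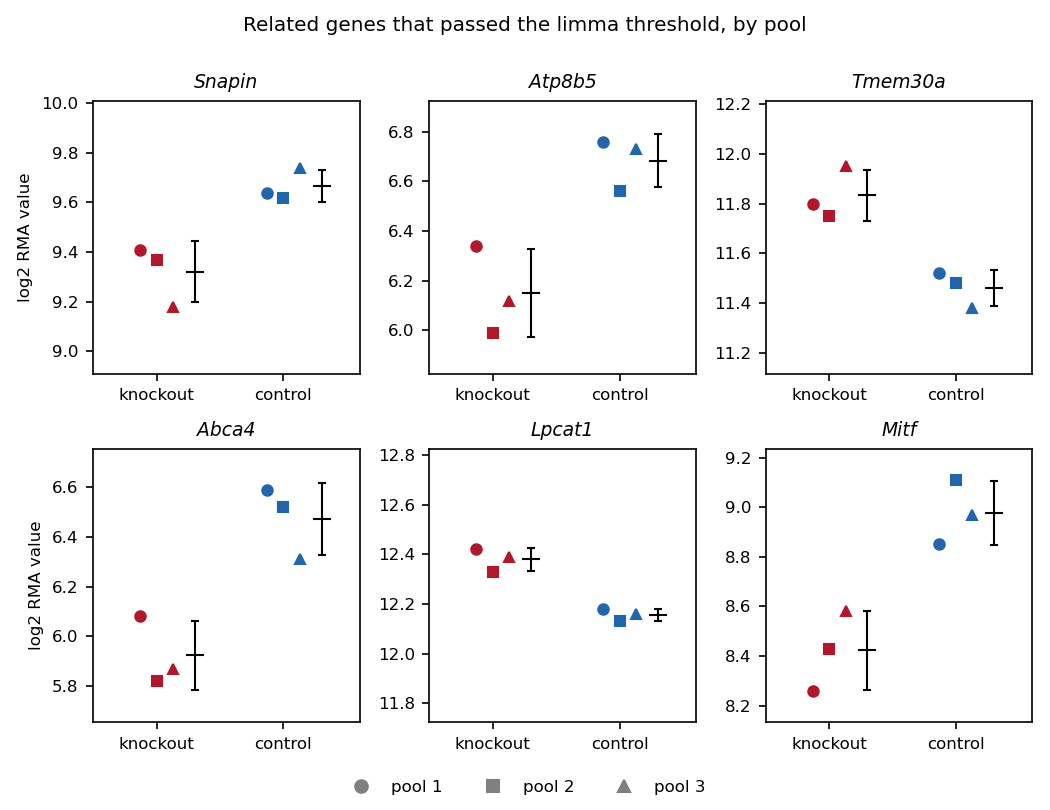
Log2 RMA values (vertical axes, all spanning the same range) of the 6 related genes that passed the limma threshold, with the 3 pools labelled knockout left of the 3 control pools and the mean with its SD beside each group. Tmem30a and Lpcat1 stand higher and Snapin, Atp8b5, Abca4 and Mitf lower in the pools labelled knockout, with no overlap in any of the 6.

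Over all 7 lists of related genes 2 rose, 4 fell and 86 of 92 did not pass, against 8.49% called among all genes. With pools of the same replicate number blocked 1 rose and 4 fell, against 3.08% and 4.86% of all genes. With dim genes left out (mean under 6.79, which removed Atp8b5 and Abca4) 4 rose and 2 fell of 70, and with a trend and robust variances 4 rose and 4 fell. The share of all genes called was not counted in those fits. Of the 6 called genes, Atp8b5, Abca4 and Mitf kept their calls with same-numbered pools blocked.

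The genes whose values over the 6 arrays most resembled those of a lamellar body gene were named by Pearson correlation among genes with a mean of at least 7 and a range of at least 0.3. For Lamp3 they were Lipo3 and Anapc4 (0.998 each) and Epha4 (0.997), which were all called higher by limma. Those nearest to Abca3 were Rdh11 (0.995), Arl15 (0.992) and Cndp2 (0.991), also all called higher. Ap3b1 was most like Rnf141 (0.998), Fyttd1 (0.997) and Tmem123 (0.996), of which Rnf141 was called higher. For Slc34a2 these were Hspa13, Hsdl2 and Eif5a2 (0.996, 0.995 and 0.993), again all called higher. Atp8a1 was closest to Gcc1, Rilp and Acot2 (0.962, 0.953 and 0.944), which were also lowest in control 1. Hps1 was nearest to Acp5, Rnf223 and Krt8 (0.996, 0.955 and 0.952) and Hps4 to Flvcr2, Slc27a1 and Etl4 (0.979, 0.979 and 0.968). For Hps6 the values were 0.923 for Psph, 0.908 for Thg1l and 0.904 for Tjp3, and for Dtnbp1 they were 0.923 for Rnf7, 0.904 for Kiss1r and 0.904 for Sult1a1. All these correlations rest on the same 6 arrays in 2 groups and are given as a description.

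**Figure D5:**
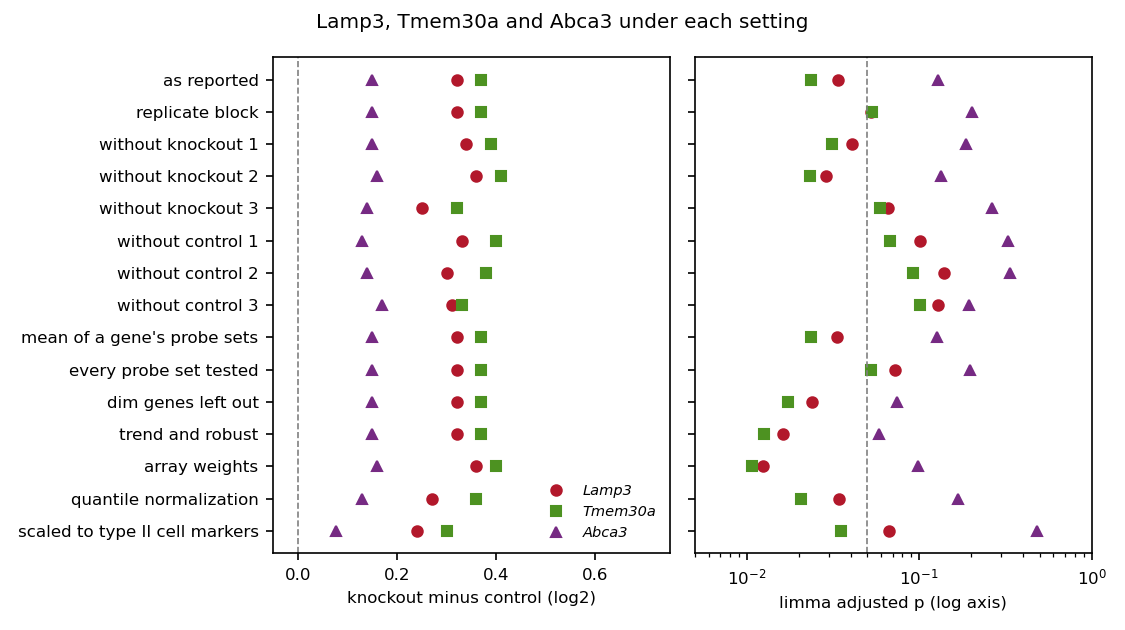
Difference on log2 (left) and limma adjusted p on a log axis (right) for Lamp3, Tmem30a and Abca3 as reported and under 14 alternative settings, with the threshold of 0.05 as a dashed line. The differences of Lamp3 stay between 0.24 and 0.36, while its adjusted p runs from 0.0124 to 0.14, and Abca3 passes under none of the settings.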

How the data were processed

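The authors deposited log2 values. The submitters' processing notes name RMA and, as the software, Affymetrix Expression Console 1.1. RMA equalises the arrays, so a shift common to most genes is removed. No build for the probes is given in the sources used. Array medians were 6.77 to 6.81, and the number of arrays limits precision.

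Of 35556 probe sets 21789 had 1 gene symbol in the platform annotation, 1621 several and 12146 none. The probe set with the highest mean was used for each of 19938 genes. Groups and replicate numbers came from the array titles. Pools labelled knockout were compared with control pools with limma 3.58.1 in R 4.3.3 (lmFit, eBayes, two-sided, Benjamini-Hochberg over all genes, threshold 0.05), which was tested on simulated data first. Intervals use the moderated t distribution with 7.03 degrees of freedom. Members and lists were chosen with earlier results of these data known. Beside all 9 members, the genes to be named were those that passed in each list, or the 3 with the smallest p where none did, and the 3 genes most like each member. Genes outside this rule are identified as such. Some listed genes were not analysed here. The labels do not say whether the pools are independent beyond their mice, so p-values measure only the spread between these samples, which may be technical. Array titles also hold a number (9 or 11 for knockout, 8 or 10 for control) that the groups do not share; what it marks is not stated, and if it is a batch it cannot be told apart from the group.

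Deviations from group means correlated at 0.192, 0.103 and 0.111 between pools of the same replicate number, each above the limit of 0.1. The labels do not state a pairing, so any pairing would rest on these correlations and on title numbers of unstated meaning. Counts, differences, intervals and adjusted p are from the fit without pairing unless another fit is named. The blocked fit, with replicate number as a fixed term, is given where it changes the call of a lamellar body gene, of a called related gene or of Ctns. The other alternatives left out each array, averaged probe sets, tested every probe set, left out dim genes, used a trend with robust variances or array weights, applied quantile normalization, or scaled arrays to the type II cell markers.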

Additional observations from a re-analysis of the deposited data

How the results depend on the processing

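The number of lamellar body genes called by limma, 1, was 0 with the replicate block, with every probe set tested and with arrays scaled to type II cell markers, where 3, 3 and 2 had an unadjusted p under 0.05. It was 0 to 1 when each array was left out in turn, with 2 or 3 at an unadjusted p under 0.05 in each of these fits. The 6 related genes called became 2 with every probe set tested and 0 to 9 when each array was left out, with 15 of 92 at an unadjusted p under 0.05 in the fit without control 2 that called 0. With the replicate block 5 were called, 1 higher and 4 lower. Atp8b5, Abca4 and Mitf were among the 6, and Ctns was not. The blocked values of the remaining gene, called lower, are not given here. The share of all genes called was counted only for the main fit and the replicate block (3.08% higher and 4.86% lower in the latter). That with an unadjusted p under 0.05 was counted only for the main fit. The other counts here therefore cannot be set beside all genes, and a loss of calls may be common to the whole array. Small differences changed sign. Slc34a2 was -0.012 after quantile normalization and -0.0092 when scaled to type II cell markers, Hps6 0.015 after quantile normalization, Dtnbp1 -0.066 and Slc34a1 -0.019 when scaled, and Ap3s1 -0.011 and -0.052 in those settings. Leaving out each array gave -0.005 to 0.21 for Atp8a1, -0.037 to 0.017 for Hps6, -0.022 to 0.028 for Dtnbp1, -0.043 to 0.0017 for Ap3d1, -0.012 to 0.053 for Ap3s1 and -0.062 to 0.0083 for Ap3b2. The causes were not tested. No other lamellar body gene changed direction under the 14 alternatives. Their values are not given for Abca17, Nkx2-1, the relatives of Mitf, Adgrf5, the markers or the genes named by likeness.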
